A study of Drosophila melanogaster with 12 samples.

Results

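In 119 genes of the *Drosophila melanogaster* larval fat body that carried a CG number in the deposited table, transcript abundance on a high-sugar diet moved the same way in both genotypes of the study. CG numbers are the systematic gene identifiers of the fly genome, and most of the genes that still go by one have never been given a name from a mutant or a biochemical function. A gene was a member if its mean abundance on high sugar, relative to the control diet, differed by at least 0.7 on the log2 scale in the same direction in each genotype. The change was taken after adding 1 to each mean and subtracting the median change over all genes (the centred log2 change), and the 3 high-sugar libraries could not overlap the 3 control-diet libraries in either genotype. Of 4627 eligible CG genes, 69 were raised (1.49%) and 50 were lowered (1.08%). The same rule took 51 of 4735 genes with other symbols as raised (1.08%) and 42 as lowered (0.887%), and over all 9367 genes it took 122 (1.3%) and 93 (0.993%). The members were chosen by these diet values, which are therefore given as a description without a test. In each genotype taken alone, the size and the separation of libraries were met by 4.02% of all genes as raised and 5.24% as lowered in the larvae labelled svp RNAi, and by 2.95% and 3.09% in control.

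The 12 libraries formed 4 groups of 3, all from fat bodies of female wandering third-instar larvae. In 2 groups the males that sired the larvae came from VDRC stock 100762, which carries UAS-Svpi, an RNAi construct against the nuclear receptor gene seven-up (svp). Their offspring ate 0.7 M sucrose (high sugar) or 0.15 M sucrose (control diet). In the other 2 groups the sires came from VDRC stock 60100, the control stock, with the same 2 diets. Every larva, control genotype included, also inherited from its mother UAS-Dcr2 on the X chromosome and r4-GAL4, a driver used for expression in the fat body. The labels do not tie the 3 libraries of a group to separate pools of larvae, so p-values cover the spread between these libraries, which may be technical in part.

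The fat body combines tasks that vertebrates divide between liver and adipose tissue. It takes up dietary sugar, stores it as glycogen and as triglyceride in lipid droplets, and secretes storage proteins, lipoproteins and antimicrobial peptides into the hemolymph. Larvae reared on high sucrose are a known model of diet-induced hyperglycemia, fat accumulation and insulin resistance. Blood cells (hemocytes), gut, salivary gland and muscle lie next to the fat body and can be carried along in a dissection.

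Values are the authors' normalized abundance per gene, in read-like units that are not divided by gene length, so levels are compared between libraries and not between genes. They summed to between 4663394 and 6490130 per library over the 9367 genes. The read counts behind them were not used here, so no counting interval is given. Before centring, the median change between diets was 0.0877 in the libraries labelled svp RNAi (the svp-RNAi-labelled libraries) and 0.113 in control. These labelled libraries had more svp RNA than control and not less: 1712, 1480 and 2180 against 631, 628 and 664 in control on high sugar, a log2 difference of 1.46 ± 0.16 (SE, limma, adjusted p = 2.2e-05). On the control diet the difference was 1.78 ± 0.16 (SE, limma, adjusted p = 6.8e-06), so every direction for genotype below is that of the label. The fat body label held: 8 of 9 listed fat body markers were found, and together they summed to 1052941 to 1458840 in svp-RNAi-labelled libraries and 1647245 to 1888936 in control. Of the other markers, 12 midgut genes summed to 2292 to 9823, with the highest sum in control-diet replicate 3 of the control genotype. The 7 salivary gland genes summed to 13486 to 23652 in svp-RNAi-labelled libraries and 12180 to 27362 in control. The 14 muscle genes summed to 12121 to 18141 in svp-RNAi-labelled libraries and 24281 to 39650 in control, so the 2 genotypes did not overlap.

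Among the raised genes, the centred log2 change ran from 0.72 to 4.37 in the svp-RNAi-labelled libraries, with a median of 1.17, and from 0.71 to 5.22 in control, with a median of 1.14. It was at least 1 in both genotypes in 39 of the 69 genes and at least 2 in both in 7. Among the lowered genes it ran from -2.94 to -0.73, with a median of -1.33, in the svp-RNAi-labelled libraries, and from -3.89 to -0.73, with a median of -1.05, in control. It was at most -1 in both genotypes in 22 of the 50 genes and at most -2 in both in 2. The median of the mean value over the 12 libraries, not corrected for gene length, was 80.8 in raised genes and 30.0 in lowered genes, against 54.0 over the eligible CG genes. Mean abundance was under 10 in 3 raised and 8 lowered genes, where a change is the less certain and the added 1 understates it. No filter on low values was applied here. The table holds no value at 0 for the genes kept, but the lowest value of a library lay between 0.476 and 1.459. A value at that level need not stand for reads. The member CG34316 was at the lowest value in replicates 1 and 3 of the high-sugar controls and replicate 2 of the high-sugar svp-RNAi-labelled libraries.

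**Figure D1:**
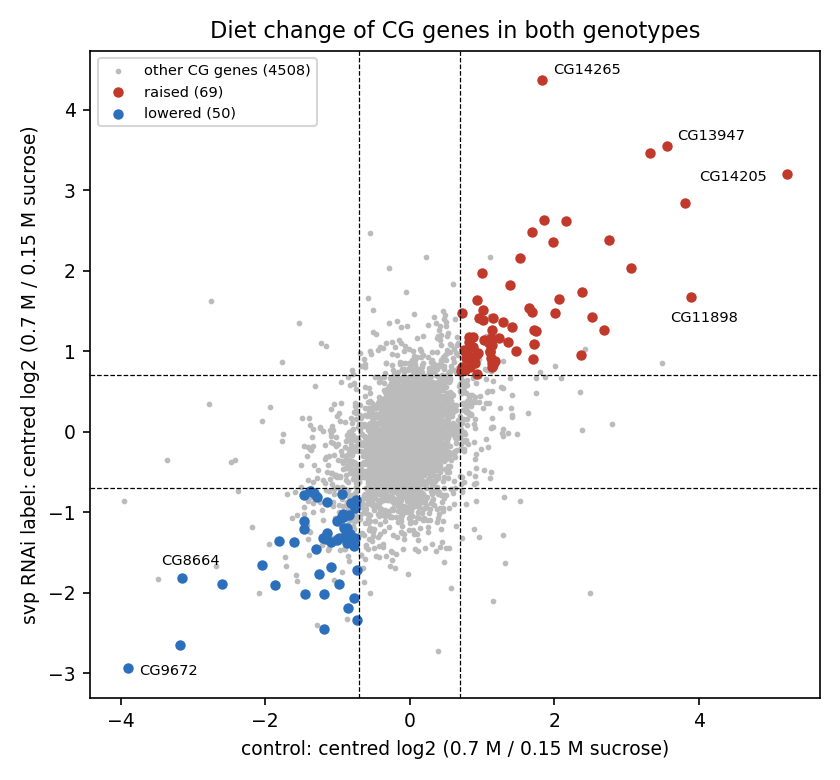
Centred log2 change between diets (0.7 M over 0.15 M sucrose) in control libraries (horizontal axis) and in svp-RNAi-labelled libraries (vertical axis), 1 point per eligible CG gene. Dashed lines mark changes of 0.7 in either direction. The 69 raised genes (red) reach 5.22 in control and the 50 lowered genes (blue) reach -3.89, and grey points beyond the dashed corners are genes whose libraries overlapped between diets.

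The 6 raised genes with the largest change common to both genotypes were CG13947, CG3348, CG14205, CG15534, CG14275 and CG1774, ranked by the smaller of the 2 changes. CG13947 (FBgn0031277, chromosome arm 2L), a gene with no known role, had 40.7, 46.9 and 12.1 on high sugar against 1.97, 1.66 and 1.63 on the control diet in svp-RNAi-labelled libraries. In control it had 61.3, 87.7 and 224 on high sugar, against 1.51, 17.4 and 7.63 on the control diet. Its centred log2 changes were almost the same, 3.55 in the svp-RNAi-labelled libraries and 3.55 in control, although the control libraries lay further apart on the control diet. Control-diet levels were only 1.63 to 1.97 in svp-RNAi-labelled libraries, so the size of the change there rests on low values.

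CG3348 (FBgn0040609, 3R) had the highest values of the 6, on a scale that is not divided by gene length. They were 1756, 793 and 1287 on high sugar, against 179, 91.3 and 54.4 on the control diet, in svp-RNAi-labelled libraries. Control libraries had 414, 334 and 1093 on high sugar and 71.0, 30.6 and 65.9 on the control diet. The lowest high-sugar library lay well above the highest control-diet library in each genotype, and the centred log2 changes were 3.46 and 3.32, in the svp-RNAi-labelled libraries and in control.

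CG14205 (FBgn0031034, X) had the largest change of all members in control, 5.22, against 3.20 in the svp-RNAi-labelled libraries. It had 66.9, 90.1 and 75.9 on high sugar against 15.8, 0.542 and 4.80 on the control diet in svp-RNAi-labelled libraries. In control the values were 242, 66.2 and 161 on high sugar and 2.62, 4.39 and 1.73 on the control diet. Control-diet levels were close to 1 read-like unit in several libraries, so the size of this change rests on low values.

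CG15534 (FBgn0039769, 3R) belongs to the acid sphingomyelinases, enzymes that cleave sphingomyelin-type lipids to ceramide. On high sugar it had 90.7, 84.7 and 84.4 in svp-RNAi-labelled libraries, against 15.8, 2.98 and 12.5 on the control diet. Control libraries had 321, 125 and 190 on high sugar and 14.2, 10.1 and 14.6 on the control diet. The centred log2 change was 2.85 in the svp-RNAi-labelled libraries and 3.82 in control, and the high-sugar svp-RNAi-labelled libraries all lay below the 3 high-sugar controls.

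CG14275 (FBgn0032022, 2L), whose product is of the Ly6 type of small membrane-anchored proteins, had 30.9, 66.7 and 58.2 on high sugar against 9.87, 10.2 and 5.57 on the control diet in svp-RNAi-labelled libraries. In control it had 162, 106 and 151 on high sugar, against 25.9, 19.0 and 10.01 on the control diet. CG1774 (FBgn0039856, 3R), of the acyl-CoA thioesterases that release free fatty acids from coenzyme A, had 277, 222 and 250.1 against 44.4, 28.2 and 39.7 in svp-RNAi-labelled libraries. In control CG1774 had 428, 154 and 368 on high sugar and 74.4, 54.8 and 63.8 on the control diet. The centred log2 changes were 2.38 and 2.75 for CG14275 and 2.62 and 2.17 for CG1774, in the svp-RNAi-labelled libraries and in control.

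The next 6 raised genes included 4 that now have names. Boot (CG13741, bootlegger), which in the germline takes part in the export of piRNA precursors, averaged 55.5 ± 26.8 on high sugar and 11.9 ± 3.70 on the control diet in svp-RNAi-labelled libraries, and 74.6 ± 18.2 and 7.33 ± 3.22 in control (SD, n = 3 each). bdl (CG16857, borderless), a cell-surface protein of the immunoglobulin superfamily, averaged 67.4 ± 9.74 and 11.5 ± 4.87 in svp-RNAi-labelled libraries, and 221 ± 21.9 and 51.0 ± 12.7 in control, in the same order. CAH9 (CG6074), a carbonic anhydrase, averaged 155 ± 49.2 and 22.7 ± 16.6, and in control 107 ± 45.8 and 26.4 ± 6.14. Nepl11 (CG9780), a neprilysin-like metallopeptidase, averaged 96.1 ± 12.0 and 15.4 ± 4.22, and in control 140.2 ± 49.8 and 39.3 ± 5.09. In each of the 4 genes the high-sugar mean was at least 3.56 times the control-diet mean in both genotypes.

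The other 2 of these 12 were CG14265, with centred log2 changes of 4.37 in the svp-RNAi-labelled libraries and 1.84 in control, and CG15282, with 1.74 and 2.38. CG14265 showed the largest change of any member in the svp-RNAi-labelled libraries. Its values there were 133, 109 and 40.8 on high sugar and 6.93, 0.684 and 2.40 on the control diet, against 65.5, 91.7 and 205 and 11.0, 37.7 and 42.9 in control. The high-sugar libraries of the 2 genotypes overlapped, and the control-diet libraries did not. Control-diet levels were only 0.684 to 6.93 in svp-RNAi-labelled libraries, so the size of the change there rests on low values.

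The other raised genes described have a current name, or a known role for which they were picked after their values were seen. Pisd (CG5991), the phosphatidylserine decarboxylase that makes phosphatidylethanolamine in mitochondria, averaged 141 ± 22.9 on high sugar and 45.2 ± 3.19 on the control diet in svp-RNAi-labelled libraries, and 175 ± 23.9 and 50.5 ± 2.59 in control (SD, n = 3 each). puml (CG1882, pummelig), a hydrolase of lipid droplets, averaged 536 ± 59.3 and 161 ± 10.1, and in control 293 ± 47.1 and 141 ± 12.1. Agpat4 (CG4753), an acyltransferase of phospholipid and triglyceride synthesis, was among the 3 raised genes with a mean under 10, at 8.41 ± 5.54 and 2.32 ± 0.31, and in control 8.55 ± 2.81 and 3.53 ± 1.79.

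CG6178, a luciferase-like fatty acyl-CoA synthetase, and CG9743, a stearoyl-CoA desaturase of the kind that puts a double bond into saturated fatty acids, were also raised. CG6178 averaged 442 ± 92.9 on high sugar and 158 ± 21.7 on the control diet in svp-RNAi-labelled libraries, and 716 ± 153 and 326 ± 19.96 in control (SD, n = 3 each). CG9743 averaged 42.3 ± 15.5 and 18.1 ± 1.104, and in control 70.1 ± 37.7 and 18.9 ± 6.24. Abcd3 (CG12703), a transporter that brings fatty acids into peroxisomes, averaged 674 ± 55.9 and 315 ± 64.6, and in control 570 ± 118 and 243 ± 16.5. Tmlh (CG4335), the trimethyllysine hydroxylase at the start of carnitine synthesis, averaged 76.7 ± 5.75 and 40.7 ± 12.2, and in control 177 ± 48.5 and 91.6 ± 9.33.

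Pdxk (CG34455), the pyridoxal kinase that makes the vitamin B6 cofactor of aminotransferases, averaged 346 ± 48.1 on high sugar and 162 ± 4.28 on the control diet in svp-RNAi-labelled libraries, and 373 ± 45.8 and 203 ± 12.6 in control (SD, n = 3 each). CG8745, itself an aminotransferase-like gene, averaged 4034 ± 864 and 2163 ± 285, and in control 3262 ± 641 and 1829 ± 227. The centred log2 changes of both genes lay between 0.72 and 1.01.

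pippin (CG4797), a sugar transporter, averaged 254 ± 11.3 on high sugar and 126 ± 10.5 on the control diet in svp-RNAi-labelled libraries, and 137 ± 24.9 and 73.3 ± 7.64 in control (SD, n = 3 each). CG5853, of the ABCG group of ATP-binding cassette transporters, averaged 621 ± 80.6 and 272 ± 50.9, and in control 364 ± 29.2 and 156 ± 20.7. Mrp5 (CG4562), of the ABCC group, averaged 29.2 ± 4.16 and 15.6 ± 4.63, and in control 38.4 ± 11.1 and 20.4 ± 4.10. CG11898, also of the ABCC group, had a centred log2 change of 1.68 in the svp-RNAi-labelled libraries and 3.89 in control.

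Of the immune genes, BomT2 (CG16836), a bomanin, one of the short secreted peptides induced by Toll signalling, averaged 109 ± 46.5 on high sugar and 28.4 ± 21.7 on the control diet in svp-RNAi-labelled libraries, and 251 ± 50.3 and 87.6 ± 73.2 in control (SD, n = 3 each). Mtkl (CG43236, Metchnikowin-like), an antimicrobial-peptide-like gene, averaged 305 ± 15.1 and 120.2 ± 46.2, and in control 267 ± 67.9 and 72.9 ± 19.2. Both changed by more than 1 on the centred log2 scale in each genotype. The trypsin-like genes CG8299 and CG17571 were raised as well, with centred log2 changes of 1.48 and 1.42 in the svp-RNAi-labelled libraries and 1.70 and 2.52 in control. Trypsins are also made in the midgut, whose 12 markers summed to 2700 to 3899 on high sugar and 2628 to 4256 on the control diet in svp-RNAi-labelled libraries. In control these sums were 2654 to 7273 on high sugar and 2292 to 9823 on the control diet. None of the 12 was called between diets in either genotype. Their centred log2 changes in control ran from -1.105 (deltaTry) to 1.503 (Jon99Cii), with a median of -0.079. In svp-RNAi-labelled libraries they ran from -1.06 (Jon99Ci) to 0.511 (alphaTry), with a median of -0.226. CG17571 followed the order of the midgut sums in the high-sugar controls (1020, 232 and 583 against 7273, 2654 and 4443). It did not in the high-sugar svp-RNAi-labelled libraries (146, 198 and 243 against 2700, 3899 and 3032). Any part of gut RNA in CG8299 and CG17571 was not tested.

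The remaining named genes were Drat (CG1600), Root (CG6129) and Rpp21 (CG33082). Drat, an alcohol-dehydrogenase-domain protein, averaged 1157 ± 103 on high sugar and 553 ± 184 on the control diet in svp-RNAi-labelled libraries, and 893 ± 80.9 and 430 ± 26.4 in control (SD, n = 3 each). Root, the rootletin of ciliary rootlets, averaged 164 ± 118 and 38.6 ± 20.1, and in control 734 ± 237 and 337 ± 5.26. Rpp21, a subunit of the tRNA-processing RNase P, averaged 9.69 ± 3.15 and 4.60 ± 2.28, and in control 8.19 ± 1.23 and 3.70 ± 1.22. The raised gene with the most read-like units was CG5773, which has no known role, at 4368 ± 975 and 1592 ± 312, and in control 3988 ± 780 and 1499 ± 78.4.

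**Figure D2:**
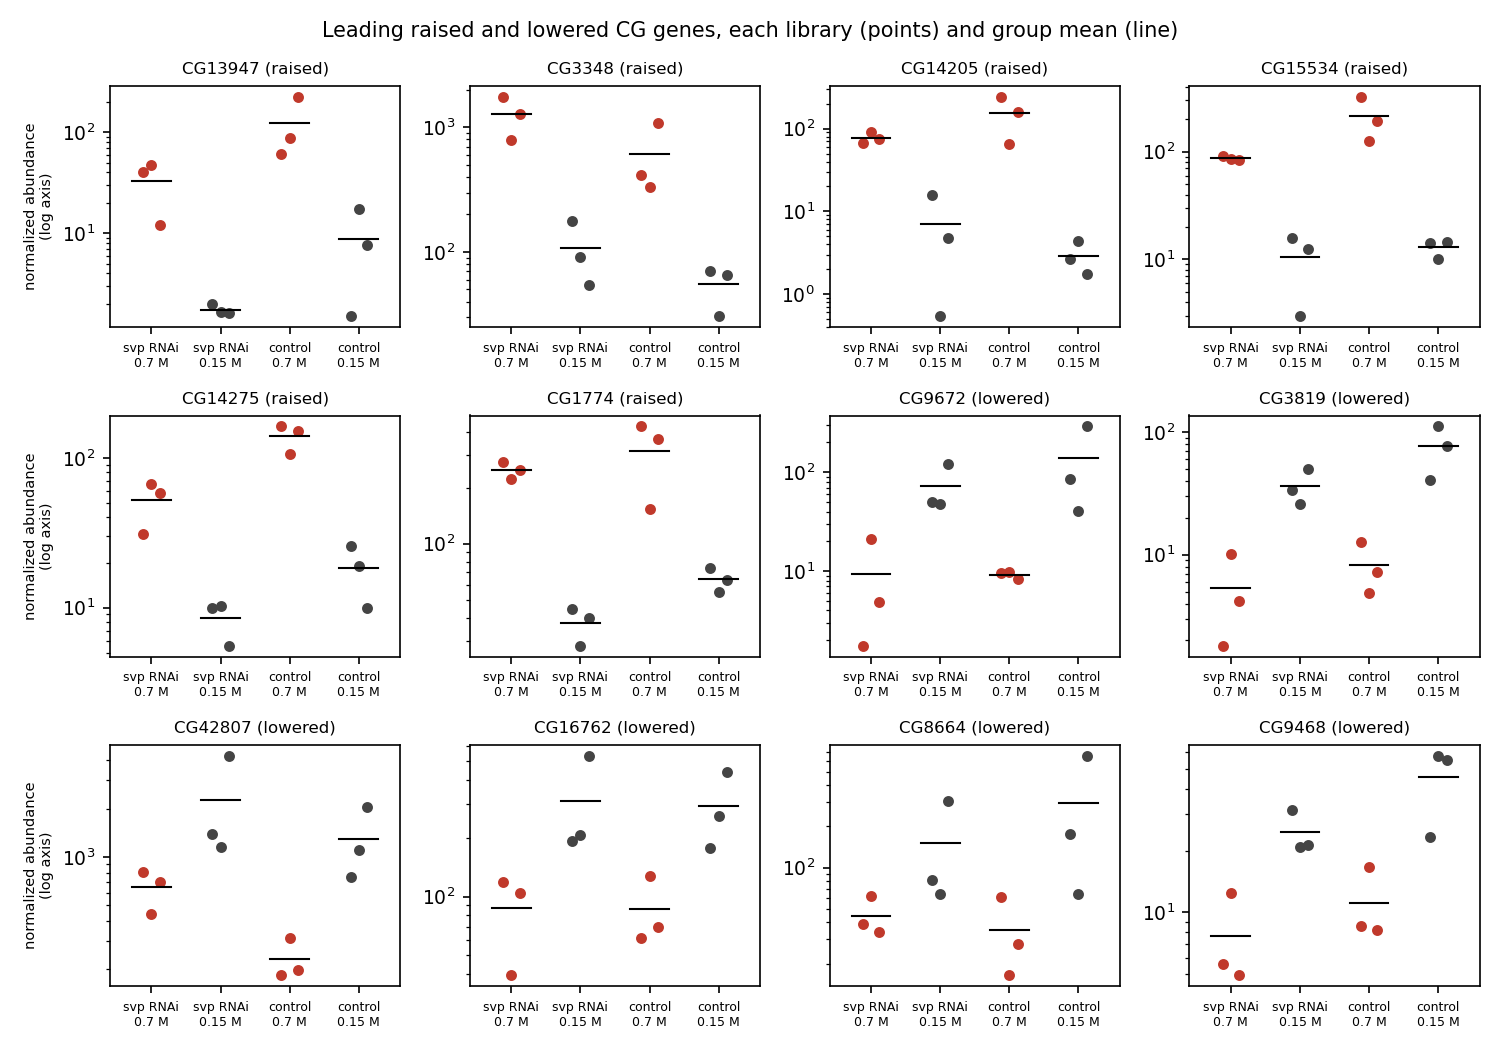
Normalized abundance (log axis, read-like units) of the 6 raised and 6 lowered CG genes with the largest change common to both genotypes, in svp-RNAi-labelled libraries and in control on 0.7 M (red) and 0.15 M sucrose (grey). Points are libraries and lines are group means of 3. The high-sugar libraries lie on 1 side of the control-diet libraries in every panel and genotype, and CG3348 reaches 1756.

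The 6 leading lowered genes were CG9672, CG3819, CG42807, CG16762, CG8664 and LManVI (CG9468). CG9672 (FBgn0030777, X), of the trypsin-like serine proteases, had 1.76, 21.2 and 4.89 on high sugar against 50.3, 48.2 and 121 on the control diet in svp-RNAi-labelled libraries. In control it had 9.61, 9.76 and 8.23 on high sugar, against 85.2, 41.0 and 290.5 on the control diet. Its centred log2 change was the largest of the lowered genes in both genotypes, -2.94 in the svp-RNAi-labelled libraries and -3.89 in control, and replicate 3 was the highest control-diet library in each.

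CG3819 (FBgn0036833, 3L), of the secreted nucleases that cut DNA and RNA, had 1.82, 10.1 and 4.19 on high sugar against 33.5, 25.7 and 50.1 on the control diet in svp-RNAi-labelled libraries. In control the values were 12.7, 4.85 and 7.20 on high sugar and 41.0, 111 and 77.1 on the control diet. The centred log2 changes were -2.64 and -3.18, in the svp-RNAi-labelled libraries and in control, and the high-sugar libraries of the 2 genotypes overlapped.

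CG42807 (FBgn0261989, 2R) has no known role. It had 807, 445 and 696 on high sugar and 1394, 1159 and 4260 on the control diet in svp-RNAi-labelled libraries. Control libraries had 184, 312 and 197 on high sugar, against 747, 1107 and 2045 on the control diet. The high-sugar svp-RNAi-labelled libraries all lay above the high-sugar controls, and the centred log2 changes were -1.89 in the svp-RNAi-labelled libraries and -2.60 in control.

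CG16762 (FBgn0035343, 3L) and CG8664 (FBgn0030836, X) have no known role. CG16762 had 119, 39.3 and 104 on high sugar against 193, 208 and 534 on the control diet in svp-RNAi-labelled libraries, and 61.1, 128 and 69.9 against 179, 261 and 441 in control. CG8664 had 38.6, 61.9 and 33.8 against 81.8, 64.5 and 304 in svp-RNAi-labelled libraries, and 61.4, 16.5 and 27.8 against 175, 64.5 and 652 in control. In CG8664 the closest high-sugar and control-diet libraries were only a few units apart in each genotype, at 61.9 and 64.5 in the svp-RNAi-labelled libraries and 61.4 and 64.5 in control. Replicate 3 of the control diet again held the highest value of both genes in both genotypes.

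LManVI (FBgn0032069, 2L) is a lysosomal alpha-mannosidase, an enzyme that trims mannose from glycoproteins in lysosomes. It had 5.62, 12.4 and 4.96 on high sugar against 31.6, 20.8 and 21.3 on the control diet in svp-RNAi-labelled libraries. In control it had 8.61, 16.6 and 8.25 on high sugar, against 23.4, 57.7 and 55.4 on the control diet. Replicate 2 was the highest of the high-sugar libraries in each genotype, and the centred log2 changes were -1.65 in the svp-RNAi-labelled libraries and -2.05 in control.

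The next 6 lowered genes were CG33226, Kmn2 (CG42550), meep (CG32335), CG31431, CG12239 and CG7465, with centred log2 changes between -2.02 and -1.21 in the svp-RNAi-labelled libraries and between -1.81 and -1.25 in control. CG33226, a trypsin-like gene, averaged 22.7 ± 3.45 on high sugar and 89.3 ± 23.2 on the control diet in svp-RNAi-labelled libraries, and 17.3 ± 2.96 and 45.3 ± 17.1 in control (SD, n = 3 each). Kmn2, a kinetochore component, was low, at 2.28 ± 0.60 and 6.98 ± 2.78, and in control 2.39 ± 0.60 and 8.48 ± 3.36. The values of meep were 263, 172 and 219 on high sugar against 565, 525 and 492 on the control diet in svp-RNAi-labelled libraries, and 93.9, 90.8 and 89.4 against 302, 309 and 285 in control. In meep the 4 groups did not overlap at all.

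Of the other lowered genes, Nepl3 (CG31918), a second neprilysin-like metallopeptidase, averaged 51.2 ± 14.0 on high sugar and 89.0 ± 5.36 on the control diet in svp-RNAi-labelled libraries, and 28.5 ± 7.65 and 59.2 ± 14.3 in control (SD, n = 3 each). nebu (CG10960), a sugar transporter, averaged 253 ± 57.9 and 405 ± 133, and in control 286 ± 31.7 and 659 ± 91.1, so 1 sugar transporter, pippin, was among the raised genes and 1 among the lowered. Vajk2 (CG16885), a protein of the cuticle, averaged 69.4 ± 25.5 and 115 ± 8.05, and in control 88.6 ± 1.55 and 201 ± 76.2. Had2 (CG10131), firl (CG14946), naz (CG31235) and sick (CG13958) complete the lowered genes with a current name apart from PPO2 (CG8193), described below. Their centred log2 changes lay between -2.34 and -1.32 in the svp-RNAi-labelled libraries and between -1.19 and -0.73 in control.

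The size of the change differed between genotypes in some members. It was larger in the svp-RNAi-labelled libraries in 35 of 69 raised genes and in 35 of 50 lowered genes. The 2 changes differed by at least 1 on the log2 scale in 7 raised and 5 lowered genes. CG14265 was larger in the svp-RNAi-labelled libraries (4.37 against 1.84), as were PPO2 (-2.07 against -0.77) and sick (-2.34 against -0.73). CG11898 (1.68 against 3.89) and CG14205 (3.20 against 5.22) were larger in control. Since the rule asked for a change in both genotypes, these differences were not tested.

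Just inside the threshold of 0.7 were CG8654 (0.76 in the svp-RNAi-labelled libraries and 0.71 in control) and CG8128 (0.72 and 0.93) among the raised genes, and CG4842 (-0.73 and -1.38) and sick (-2.34 and -0.73) among the lowered. Just outside it were CG15879 (0.70 and 0.96), CG3868 (0.69 and 1.88), CG33993 (-1.08 and -0.68) and CG12038 (-1.54 and -0.67). A further 14 CG genes met the size as raised and 105 as lowered, but their libraries overlapped in at least 1 genotype. Without centring, the rule took 87 raised and 38 lowered genes, a share of raised genes of 69.6% in place of 58.0%.

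Lists of gene families were searched for members. Over all 9367 genes the same rule took 1.3% as raised and 0.993% as lowered. Of 19 amino acid breakdown enzymes found, CG8745 was the only member. Of the other 18, none was called higher between diets, Mccc1 (CG2118), a subunit of the leucine-breakdown enzyme methylcrotonoyl-CoA carboxylase, was called lower in the svp-RNAi-labelled libraries and none was called lower in control (limma, adjusted p under 0.05). Over all 9367 genes such calls made up 4.92% higher and 3.75% lower in the svp-RNAi-labelled libraries, and 1.44% higher and 0.619% lower in control. The median centred log2 change of the 19 genes was -0.23 in the svp-RNAi-labelled libraries and -0.22 in control, against 0 over all genes by construction. LManVI was the member among 3 lysosomal alpha-mannosidases, and the other 2, LManI and LManII, had centred changes of -0.60 and -0.52 in the svp-RNAi-labelled libraries and -0.57 and -0.61 in control, of which LManII was called lower in the svp-RNAi-labelled libraries. CG34316, a juvenile hormone-binding-protein-like gene at or below 2.91 in every group mean, was the member among 11 such genes, and none of the other 10 was called. CG8654 was the member among 10 organic cation transporter-like carriers, and none of the other 9 was called.

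The other 5 family lists held no member. They were 6 aldo-keto reductases, 9 fatty acyl reductases, 14 phosphate cotransporter-like carriers, 10 neprilysin-like peptidases and 8 genes listed as fatty acid elongases, of which 1 proved to be the storage protein gene Lsp1gamma. Nepl11 and Nepl3, both members, were not in the neprilysin list. Among the 10 listed neprilysins, Nep6 (CG3775) was called higher on high sugar and Nepl14 (CG4723) lower in the svp-RNAi-labelled libraries, and Nepl4 (CG9505) higher in control. The aldo-keto reductases gave 1 lower call in the svp-RNAi-labelled libraries and 1 higher call in control. The elongase list gave 2 lower calls in the svp-RNAi-labelled libraries, 1 of them Lsp1gamma, the fatty acyl reductases gave 1 lower call in control, and the phosphate carriers gave 1 higher call in the svp-RNAi-labelled libraries and 1 lower call in control.

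The genotype difference within each diet is not the contrast that chose the members, so it was tested, with limma over all 12 libraries and 9367 genes. It is made of the same libraries, however, and the rule also asked that they not overlap between diets. The shares called are therefore not free of the choice. On high sugar, 33 of the 119 genes were called (27.7%, against 13.4% of all genes): 20 were higher and 13 lower in the svp-RNAi-labelled libraries. On the control diet 28 were called (23.5%, against 8.56% of all genes), 14 higher and 14 lower. Without replicate 2 of the control-diet svp-RNAi-labelled libraries that number was 17, the lowest when 1 library was left out. The members were also more variable than other genes: the median SD between replicates on the log2 scale was 0.38 in raised and 0.45 in lowered genes, against 0.25 over all genes. The median size of the genotype difference, without regard to sign, was 0.63 in members and 0.27 over all genes on high sugar.

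Marker genes of several tissues differed between the genotypes too (limma, adjusted p under 0.05). Of the 14 muscle markers, 8 were called lower and none higher in svp-RNAi-labelled libraries on high sugar, and 13 were lower and none higher on the control diet, with median log2 differences of -0.78 and -1.22. Of the 8 fat body markers, 5 were lower on high sugar and 4 on the control diet and none was higher, among them the storage protein genes Lsp1alpha, Lsp1beta and Lsp1gamma on both diets. Of 8 hemocyte markers, the member PPO2 included, 4 were lower on high sugar and 2 on the control diet. The 7 neuron markers found gave 1 higher and 4 lower calls on high sugar and 1 higher and 1 lower on the control diet, the 7 salivary gland markers 1 and 2 lower calls, the 5 cuticle markers 2 and 1 lower calls, and the 12 midgut markers 1 higher call on each diet. None of 3 Malpighian tubule and 7 imaginal disc markers was called. Fewer cells of a type and less RNA per cell cannot be told apart in bulk tissue, and the part of other tissues in the members' genotype calls was not tested.

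Raised genes were called in both directions. On high sugar 14 of the 69 were higher (20.3%, against 7.17% of all genes) and 9 lower (13%, against 6.22%), and on the control diet 11 were higher (15.9%, against 4.27%) and 11 lower (15.9%, against 4.29%). Of the 50 lowered genes, 6 were higher (12%) and 4 lower (8%) on high sugar, and 3 were higher and 3 lower on the control diet (6% each). The median genotype difference was -0.26 in raised and -0.32 in lowered genes on high sugar, and -0.01 and 0.01 on the control diet, against -0.01 and 0.01 over all genes. The same direction was called on both diets in 17 raised genes, 10 higher and 7 lower, and in 4 lowered genes, 2 higher and 2 lower, and no member was called in opposite directions. Of all genes, 2.7% were called higher and 2.6% lower on both diets, and only 3 of 9367 were called in opposite directions. The comparisons on the 2 diets share no library, only the estimate of spread. However, the difference between these comparisons is made of the diet changes that chose the members. Agreement between the diets is therefore set in part by the choice and is not separate support.

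**Figure D3:**
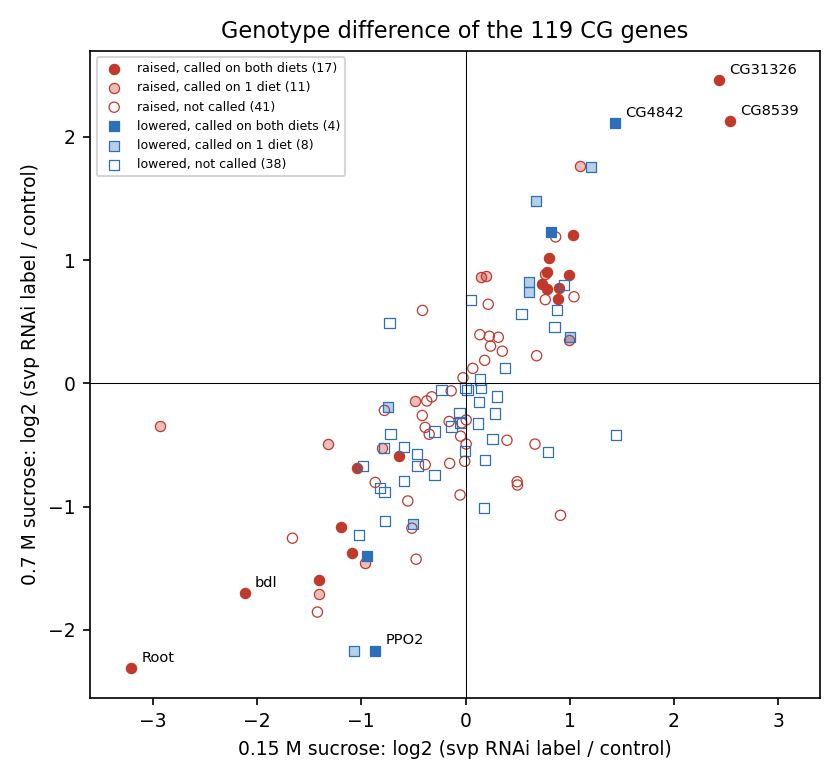
Log2 difference between svp-RNAi-labelled libraries and control on 0.15 M (horizontal axis) and on 0.7 M sucrose (vertical axis), 1 symbol per member. Filled symbols are genes called on both diets (17 raised, 4 lowered), pale symbols genes called on 1 diet and open symbols genes not called. CG31326 and CG8539 lie at the upper right, and Root and bdl at the lower left.

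Among genes called higher on both diets, the largest differences were those of CG31326, CG8539 and CG4842. CG31326, a serine-protease-family gene raised by sugar, had 578, 683 and 474 in svp-RNAi-labelled libraries against 80.3, 129 and 106 in control on high sugar. Control-diet values were 158, 238 and 177 against 54.9, 79.5 and 8.46. All svp-RNAi-labelled libraries lay above the controls on each diet, and the log2 differences were 2.46 ± 0.54 (SE, limma, adjusted p = 0.007) and 2.43 ± 0.54 (SE, limma, adjusted p = 0.01), in the order high sugar, control diet.

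CG8539, a zinc carboxypeptidase raised by sugar, had 180, 120 and 136 in svp-RNAi-labelled libraries against 33.1, 33.2 and 29.8 in control on high sugar, and 68.1, 87.7 and 69.2 against 17.0, 6.91 and 14.6 on the control diet. The log2 difference was 2.13 ± 0.27 (SE, limma, adjusted p = 9.8e-05) on high sugar and 2.53 ± 0.27 (SE, limma, adjusted p = 3e-05) on the control diet. The control-diet svp-RNAi-labelled libraries were above even the high-sugar controls. CG4842, a gene lowered by sugar whose role is not known, had 99.98, 112 and 132 against 16.2, 31.3 and 32.8 on high sugar, and 231, 162 and 146 against 50.1, 69.1 and 77.7 on the control diet. Its log2 differences were 2.11 ± 0.26 (SE, limma, adjusted p = 8.1e-05) on high sugar and 1.43 ± 0.26 (SE, limma, adjusted p = 0.0025) on the control diet.

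The other genes called higher on both diets were raised by sugar, apart from meep, whose log2 differences were 1.23 ± 0.14 on high sugar (SE, limma, adjusted p = 4.2e-05) and 0.82 ± 0.14 on the control diet (SE, limma, adjusted p = 0.0016). pippin was 1.86 times as abundant in svp-RNAi-labelled libraries as in control on high sugar and 1.72 times on the control diet (limma, adjusted p = 0.0011 and 0.0042). CG5853 was 1.71 and 1.74 times as abundant (limma, adjusted p = 0.0046 and 0.005). CG15347 and CG14401 were called as well, with log2 differences from 0.68 to 0.90. The calls on both diets held under all 19 alternatives in these 5 genes, in CG31326, CG8539 and CG4842, and in bdl, CG5707, Root and Tmlh, which were lower. CG17681, CG14872, CG3301 and CG4269 were also called higher on both diets. Without replicate 2 of the control-diet svp-RNAi-labelled libraries, each of these 4 lost its control-diet call, with adjusted p (limma) up to 0.082, 0.1, 0.15 and 0.066 over the alternatives. The control-diet calls of CG17681 and CG3301 were also lost with the 6 control-diet libraries alone. Those of CG14872 and CG3301 were also lost without an intensity trend. The high-sugar call of CG14872 was also lost, under 5 of the 19 alternatives, with adjusted p up to 0.13: without an intensity trend, without replicate 2 or 3 of the high-sugar controls, and without replicate 1 or 3 of the high-sugar svp-RNAi-labelled libraries.

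Root, bdl and PPO2 differed most among genes called lower on both diets. Root had 98.8, 300.3 and 93.8 in svp-RNAi-labelled libraries against 868, 460.5 and 873 in control on high sugar, and 31.6, 23.0 and 61.2 against 339, 331 and 341 on the control diet. The control-genotype libraries on the control diet lay above every library labelled svp RNAi on either diet. The log2 differences were -2.31 ± 0.41 (SE, limma, adjusted p = 0.0014) on high sugar and -3.21 ± 0.41 (SE, limma, adjusted p = 0.00013) on the control diet.

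bdl had 63.2, 78.5 and 60.4 in svp-RNAi-labelled libraries against 244, 201 and 218 in control on high sugar, and 5.89, 14.4 and 14.2 against 65.7, 43.6 and 43.7 on the control diet. The high-sugar svp-RNAi-labelled libraries overlapped the control-diet controls. The log2 differences of bdl were -1.70 ± 0.28 (SE, limma, adjusted p = 0.00083) and -2.12 ± 0.28 (SE, limma, adjusted p = 0.00017), in the order high sugar, control diet. CG5707, raised by sugar and of no known role, was next, with log2 differences of -1.59 ± 0.25 (SE, limma, adjusted p = 0.00065) and -1.41 ± 0.25 (SE, limma, adjusted p = 0.0021). Tmlh differed by -1.17 and -1.19 (limma, adjusted p = 0.0032 and 0.0035). CG3513, a Kunitz-type protease inhibitor, CG6178, CG5167 and, among the lowered genes, CG42329 were also called lower on both diets, with less stable calls. The control-diet call of CG3513 was lost without replicate 1 or 2 of the control-diet controls (limma, adjusted p up to 0.069). It was also lost without an intensity trend and with the 6 control-diet libraries alone. The high-sugar call of CG6178 was lost without replicate 1 or 3 of either high-sugar group (up to 0.091). CG42329 lost its control-diet call without any 1 of the control-diet controls or replicate 1 or 2 of the svp-RNAi-labelled libraries (up to 0.076). CG5167 lost its call on each diet without any of several libraries, with adjusted p (limma) up to 0.17 on high sugar and 0.12 on the control diet. Both calls were also lost without an intensity trend. The high-sugar call was lost with the 6 high-sugar libraries alone and with the replicate number as a block.

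PPO2, the prophenoloxidase of crystal cells, had 216, 375 and 279 in svp-RNAi-labelled libraries against 1091, 1167 and 1626 in control on high sugar. Control-diet libraries had 1431, 1250.2 and 754 against 1714, 1860 and 2566. The groups did not overlap on either diet, and the log2 difference was -2.17 ± 0.25 (SE, limma, adjusted p = 4.2e-05) on high sugar and -0.87 ± 0.25 (SE, limma, adjusted p = 0.046) on the control diet. The control-diet call was lost without any 1 of 8 libraries: the 3 control-diet controls, replicates 2 and 3 of the control-diet svp-RNAi-labelled libraries, replicates 1 and 2 of the high-sugar controls and replicate 3 of the high-sugar svp-RNAi-labelled libraries. It was also lost without an intensity trend, with the 6 control-diet libraries alone and with the replicate number as a block. Its adjusted p (limma) ran from 0.034 to 0.16 over the alternatives.

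PPO2 moved beside other blood cell genes. All 8 listed hemocyte markers were found and none was at 0. They summed to 2307 to 3012 on high sugar and 4520 to 5194 on the control diet in svp-RNAi-labelled libraries, and to 4824 to 6295 and 6110 to 8783 in control. These sums include PPO2 itself, whose fall on high sugar was set by the choice of members. PPO2 averaged 290 on high sugar and 1145 on the control diet in svp-RNAi-labelled libraries, against 1294.5 and 2046.5 in control. Of the 7 that were not members, Hml, NimC1, He and PPO1 were called lower on high sugar in the svp-RNAi-labelled libraries, and Hml in control. PPO1, the other crystal cell prophenoloxidase, averaged 130 on high sugar and 720 on the control diet in svp-RNAi-labelled libraries, against 572 and 914 in control. The part of blood cell number in PPO2 was not tested.

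Several members were called on 1 diet. puml was 1.83 times as abundant in svp-RNAi-labelled libraries on high sugar, at 585, 470 and 553 against 310, 240.0 and 330 in control, with a log2 difference of 0.88 ± 0.14 (SE, limma, adjusted p = 0.00079). The control-diet difference was 0.19 ± 0.14 (SE, limma, adjusted p = 0.48). CG34301, a lowered gene of no known role, differed by -2.17 ± 0.38 on high sugar (SE, limma, adjusted p = 0.0013). On the control diet CG14265 differed by -2.94 ± 0.62 (SE, limma, adjusted p = 0.0073), Nepl11 was lower, at 15.4 against 39.3, and CG18135, of the glycerophosphodiesterases, was lower, at 1024 against 1754 (limma, adjusted p = 0.0081). The size of the CG14265 difference rests on low values, 6.93, 0.684 and 2.40 in the control-diet svp-RNAi-labelled libraries. All of these calls on 1 diet held under all 19 alternatives. Whether the genotype difference of these genes itself differs between diets was not tested, since that difference is made of the contrasts that chose them.

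Of the 12 leading genes in each direction, 4 more were called on 1 diet with less stable calls. CG14275 was lower on high sugar, and the call was lost without replicate 3 of the high-sugar controls or replicate 1 of the high-sugar svp-RNAi-labelled libraries, with adjusted p from 0.0059 to 0.066 over the alternatives. CG42807 was higher on high sugar, and the call was lost without replicate 1 or 3 of either high-sugar group, with adjusted p (limma) from 0.0035 to 0.12. That call was also lost without an intensity trend. CG15282 and CG33226 were higher on the control diet, with adjusted p (limma) from 0.012 to 0.19 and from 0.019 to 0.18, and leaving out any of 10 and of 8 single libraries ended the calls. Both calls were also lost without an intensity trend and with the 6 control-diet libraries alone, and that of CG15282 with a pseudocount of 5.

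Some libraries weighed on the members more than on other genes. Replicate 3 was the highest of the 3 control-diet libraries in 27 of 50 lowered genes (54%) in the svp-RNAi-labelled libraries and in 26 of 50 (52%) in control, against 33.1% and 37.5% of all genes. Among high-sugar svp-RNAi-labelled libraries, replicate 1 was the highest in 37 of 69 raised genes (53.6%) and 23 of 50 lowered genes (46%), against 33.9% of all genes. Without it the rule took 66 raised genes, 60 of them members. Among control-diet svp-RNAi-labelled libraries, replicate 2 was the highest in 31 raised genes (44.9%), against 30.7% of all genes. Replicate 2 was the lowest of the 3 high-sugar controls in 44 of 69 raised genes (63.8%), against 32.1% of all genes. That library also had the lowest midgut sum, at 2654 against 7273 and 4443, and the lowest muscle sum, at 24281 against 35845 and 28583. Its fat body, cuticle, hemocyte and neuron sums were the lowest too. Its salivary gland, Malpighian tubule and imaginal disc sums were not. With replicate 3 left out of both control-diet groups, a choice made after these values were seen, the rule took 76 raised and 51 lowered genes, of which 62 and 40 were members. Markers of Malpighian tubule and midgut were high in the same libraries. The 3 Malpighian tubule markers found summed to 266.2, 287.3 and 652.7 on the control diet in svp-RNAi-labelled libraries and to 294.4, 359.3 and 479.3 in control, with replicate 3 the highest in each. On high sugar these sums were 223.5 to 297.8 and 245.5 to 320.2, and the median centred log2 change between diets was -0.71 in the svp-RNAi-labelled libraries and -0.53 in control, with none of the 3 called. The 12 midgut markers also had their highest control-diet sums in replicate 3, at 4256 against 2628 and 3775 in svp-RNAi-labelled libraries and 9823 against 3527 and 2292 in control. Salivary gland markers did not share this, with the lowest control-diet sum in replicate 3 in each genotype. The muscle sum of replicate 3 was the lowest in svp-RNAi-labelled libraries, at 12121. In control it was the highest, at 39650 against 27969 and 38444. Cuticle and hemocyte sums were also highest in replicate 3 in control, at 4455 and 8783, but not in svp-RNAi-labelled libraries, at 1913 and 4520. The hemocyte sums include the lowered member PPO2. The part of other tissues in the replicate 3 values of the lowered genes, and in the replicate 2 values of the raised genes, was not tested.

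**Figure D4:**
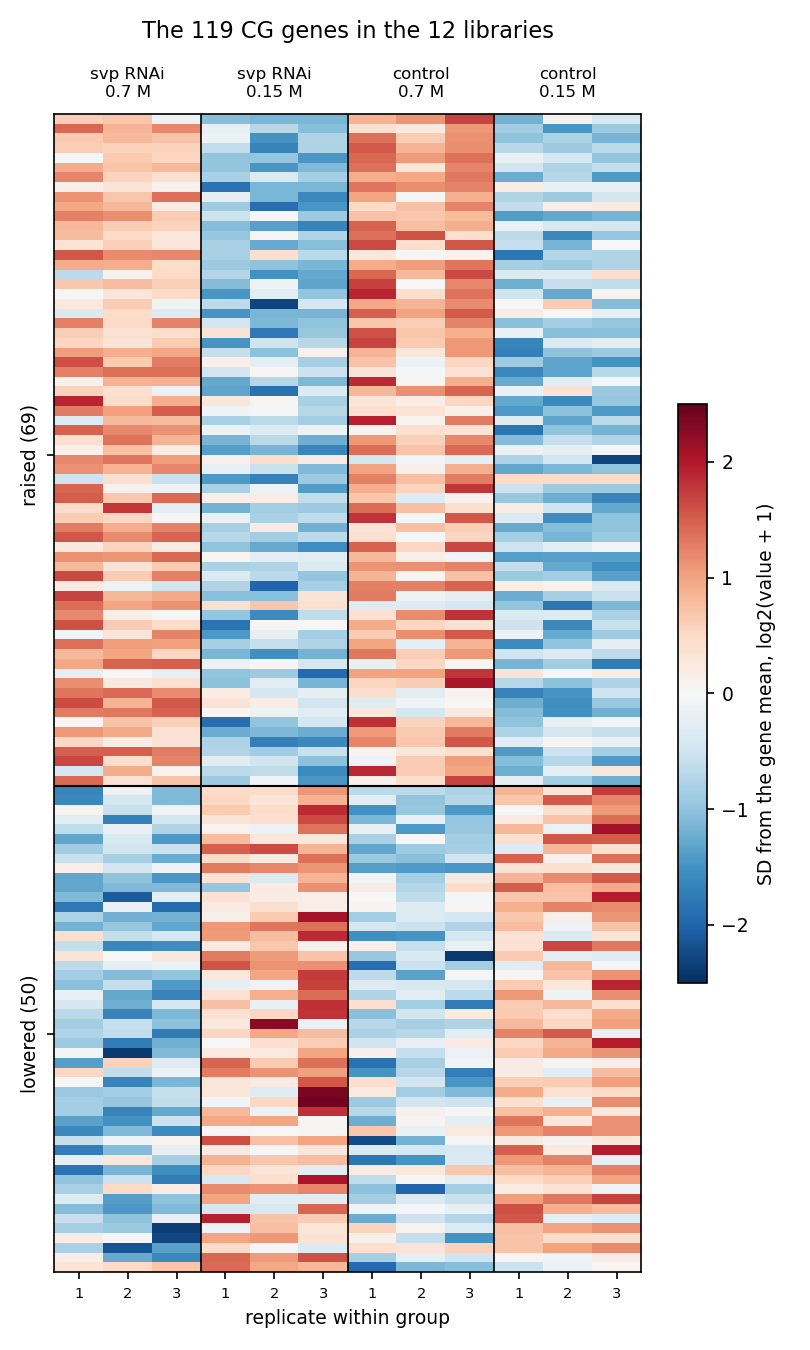
The 119 members (rows, ordered by the size of their common change within raised and lowered genes) in the 12 libraries (columns). Colour gives the distance from the mean of the gene over all libraries, in SD of log2(value + 1). Raised genes are high in the 0.7 M columns of both genotypes and lowered genes are low there, and the deepest red among lowered genes is often in replicate 3 on 0.15 M sucrose, the highest control-diet library in 27 and 26 of 50 genes.

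Of the 119 genes, 118 had 1 match in the Release 6 annotation, all of them protein-coding (100%, against 99.7% of matched CG genes), and 18 raised and 11 lowered genes now have a name in place of the CG number. Raised genes lay on arm 3R in 21 cases (30.4%), 2R in 15 (21.7%), 2L in 14 (20.3%), and X and 3L in 9 each (13.0%). Lowered genes lay on 3R in 15 cases (30%), 2L in 11 (22%), 2R in 10 (20%), 3L in 8 (16%), X in 5 (10%) and chromosome 4 in 1. The eligible CG genes were on 3R in 25.1%, 2R in 19.5%, 2L in 17.6%, 3L in 19.6% and X in 17.1%.

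There were 9 pairs of members within 5 gene steps of each other, with 17 members in them, and 6 of the pairs moved in the same direction. Directly adjacent were CG42329 and CG5397 (both lowered, 2L), CG8654 and CG16898 (both raised, 2R), and CG30286, CG30287 and CG33226 (all lowered, 2R), which are neighbouring trypsin-like genes. How reads of neighbouring genes with similar sequence were divided is not given in the sources used here. Had2 and Mtkl were adjacent on 2R and moved in opposite directions. CG14872 has since been split into a pair of genes, so its value cannot be given to either.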

How the data were processed

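RNA-seq libraries of 12 larval fat body samples were analysed from 1 deposited table. The submitters' processing notes name build dm3 and the tools Bowtie 0.12.7, TopHat 1.3.2, Cufflinks 1.1.0 and edgeR. The deposited table holds 1 signal value for each gene and library, which its header calls normalized abundance. The sources used here do not give the annotation, the counter or the filters. Of 9527 rows, 156 with names that repeat apart from case and 4 with bare numbers as names were left out. The 7 CG genes that the rule excludes were not eligible, and 5 of them were in the table. Symbols were matched to RefSeq Release 6 for names, arms and gene order: 9250 matched once, 36 not at all and 81 several times.

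A pseudocount of 1 was added and the log2 values were fitted with 4 group means in limma 3.58.1 (R 4.3.3), with a trend on intensity. P-values were adjusted by Benjamini and Hochberg over 9367 genes, with calls at an adjusted p under 0.05. The fit was also run on simulated data, with 1 dispersion for all genes and changes in 1 group only. That simulation does not cover the larger spread of the members, so it gives no measure of how reliable their calls are. For diet calls of the listed genes, the high-sugar values were first scaled by the median shift between diets, 0.105 on the log2 scale. This shift was taken over both genotypes together, unlike the centring of the members, and sets the median gene to no change between diets. Genes named were the first 12 per direction by the smaller of both changes, listed family members, the 3 largest genotype differences per direction called on both diets, genes next to the threshold, and members with a current name. Other genes were named after their values were seen. One member with a current name is not reported here. Members and lists were chosen with earlier results of these data known. Alternatives were other pseudocounts, sizes, normalizations and filters, no trend, 1 diet alone, a replicate block and each library left out.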

Additional observations from a re-analysis of the deposited data

Results flagged for a closer look

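CG42566, a lowered gene of no known role on arm 2R, was picked because its libraries separated by genotype in opposite directions on the 2 diets. How many genes would show such a separation by chance was not tested, and its share among all genes was not taken. On high sugar it had 2.83, 3.45 and 2.52 in libraries labelled svp RNAi and 5.33, 4.88 and 4.12 in control, a log2 difference of -0.555 ± 0.322 (SE, limma, adjusted p = 0.29). On the control diet it had 16.8, 20.2 and 20.7 in libraries labelled svp RNAi and 13.3, 6.86 and 13.1 in control, a log2 difference of 0.789 ± 0.322 (SE, limma, adjusted p = 0.16). All 3 libraries labelled svp RNAi lay below control on the one diet and above it on the other, and neither difference passed the threshold alone. The difference between the diets was not tested, since it is made of the contrasts that chose the gene. The levels on high sugar are a few read-like units, where a change is uncertain.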

How the results depend on the processing

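With a size of 1 in place of 0.7, the rule took 39 raised and 22 lowered genes, all of them members. A pseudocount of 0.5 gave 70 and 52, a pseudocount of 5 gave 59 and 40, quantile normalization gave 73 and 43, and a mean of at least 10 gave 64 and 42. Values that were not centred gave 87 and 38. Leaving out 1 library at a time gave 66 to 81 raised and 50 to 67 lowered genes.

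The number of members called for genotype on high sugar, 33, ran from 27 to 34 under the other settings and from 24 to 33 without 1 library. On the control diet, 28 were called. That number ran from 19 to 30 under the other settings and from 17 to 28 without 1 library, and the lowest was without replicate 2 of the control-diet libraries labelled svp RNAi. Without an intensity trend 27 were called on high sugar and 19 on the control diet, and with the 6 libraries of a diet alone 32 and 22. Of the calls, 21 of 33 on high sugar and 16 of 28 on the control diet held under all 19 alternatives, and no member changed direction in a call. Pairing by replicate number was examined only between the genotypes within each diet. Same-numbered libraries of the 2 genotypes deviated from their group means with correlations of -0.108, 0.03 and -0.146 on high sugar. On the control diet these correlations were -0.005, -0.058 and 0.136. Libraries with unlike numbers reached 0.155 on high sugar and 0.181 on the control diet. Control-diet replicate 3 was the highest in 54% of lowered genes in libraries labelled svp RNAi and 52% in control. A batch shared by same-numbered libraries was not tested. With a replicate block, 33 were called on high sugar, 30 of them shared, and 30 on the control diet, 27 of them shared. The calls not shared were those of CG30286, Nepl3 and CG5167 on high sugar and of PPO2 on the control diet. The read depth behind each value was not used here, which limits the genes with means of a few units.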
